A study of Mus musculus with 9 samples.

Results

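S100 proteins are small calcium-binding proteins of the EF-hand family, and the transcripts of 9 of them were followed in mouse liver: S100a1, S100a4, S100a6, S100a8, S100a9, S100a10, S100a11, S100a13 and S100g. A probe was taken when the RefSeq accession in its array record, without the version, mapped to one of these symbols. All 9 genes were found, with 12 probes, among 20972 named genes on the array. All 12 probes passed the filter on dim signal. S100g passed it only through the STAM groups, since neither of its probes was well above background in any Normal mouse, and the other 8 genes were well above background on all 9 arrays.

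Total liver RNA was hybridised to 1-colour Agilent mouse arrays, with 1 array for each of 9 male C57BL/6J mice aged 20 weeks, 3 in each of 3 groups. STAM mice, a model of diabetes with steatohepatitis and liver cancer, received streptozotocin, which destroys insulin-secreting cells, soon after birth and were then fed a high-fat diet from about weaning. The STAM-NON mice had no further treatment, and the STAM-INS mice were injected with insulin glargine, a long-acting insulin analogue, each day. Normal mice were lean controls, for which the labels name no treatment. Streptozotocin and the diet were given together in both STAM groups, so their parts cannot be told apart. The labels do not say whether tumour tissue was in the pieces taken. Values are centred log2 signals, that is log2 of the processed spot signal after each array's 75th percentile was subtracted. A difference of 1 is a change of 2-fold, and a threshold of 0.05 was set on p-values adjusted over all tested probes in limma.

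The hepatocyte markers gave a high signal in every mouse. All 12 of them were well above background on each array, and their mean centred log2 signal lay between 8.33 and 8.65 in STAM-NON, 8.57 and 8.65 in STAM-INS and 8.79 and 8.85 in Normal. Between 46.2% and 65.0% of spots were well above background per array. All STAM arrays shared a slide and all Normal arrays lay on another, so slide and disease cannot be told apart in a comparison with Normal, whereas STAM-INS and STAM-NON were compared within a slide. By the file headers, the STAM-NON arrays and STAM-INS 1 lay in row 1 of a slide and the other arrays in row 2, so that no row held both STAM-NON and Normal. The liver samples held mixed cells, in which fewer cells of a type and less RNA per cell cannot be told apart.

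Most S100 proteins work as dimers that change shape when calcium enters the cell and then grip a partner, such as an annexin, myosin or tropomyosin. S100a8 and S100a9 pair to form calprotectin, which neutrophils and monocytes hold in large amounts, release in inflammation, and which sequesters zinc and manganese and signals through Tlr4 and the receptor for advanced glycation end products (Ager). S100a4, S100a6, S100a10 and S100a11 are found in mesenchymal, epithelial and myeloid cells and take part in motility and membrane repair. S100g, or calbindin-D9k, carries calcium across intestinal cells under control of vitamin D. In liver, rises of several family members have been tied to inflammation, fibrosis and tumours.

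Of the 8 genes well above background on all arrays, 3 were higher and 1 was lower in STAM-NON than in Normal. S100a11, S100a4 and S100a6 rose and S100a1 fell, while S100a8, S100a9, S100a10 and S100a13 did not pass the threshold. S100g passed too, which makes 5 of 9, but it entered the test only through the groups where it was bright and is described apart. Of 13389 named genes tested with 1 probe each, 16.3% passed in this comparison, 7.94% higher and 8.39% lower. The median difference was 2.36 over the 8 genes and -0.10 over all named genes. Between STAM-INS and Normal, S100a4 and S100a11 of the 8 passed, both higher, and S100g as a ninth gene makes 3 of 9, against 13.5% of all named genes and 6.18% higher. Between STAM-INS and STAM-NON, none of the 9 passed in limma, where 0.0822% of named genes passed. An unadjusted p under 0.05 was found for 1 of the 9 and for 2309 of all 26289 probes tested. With the slide row as a block, none of the 9 passed between STAM-NON and Normal, and without the filter on dim probes 2 did (S100a4 and S100a11). Fitted on only the 6 arrays concerned, STAM-INS minus Normal gave 5. The comparisons of both STAM groups with Normal share the Normal arrays and are therefore not independent. The shares over all named genes given here are also the background for the gene lists below. Groups without overlap were not counted over all named genes, so such separation of a gene is given as a description only.

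**Figure D1:**
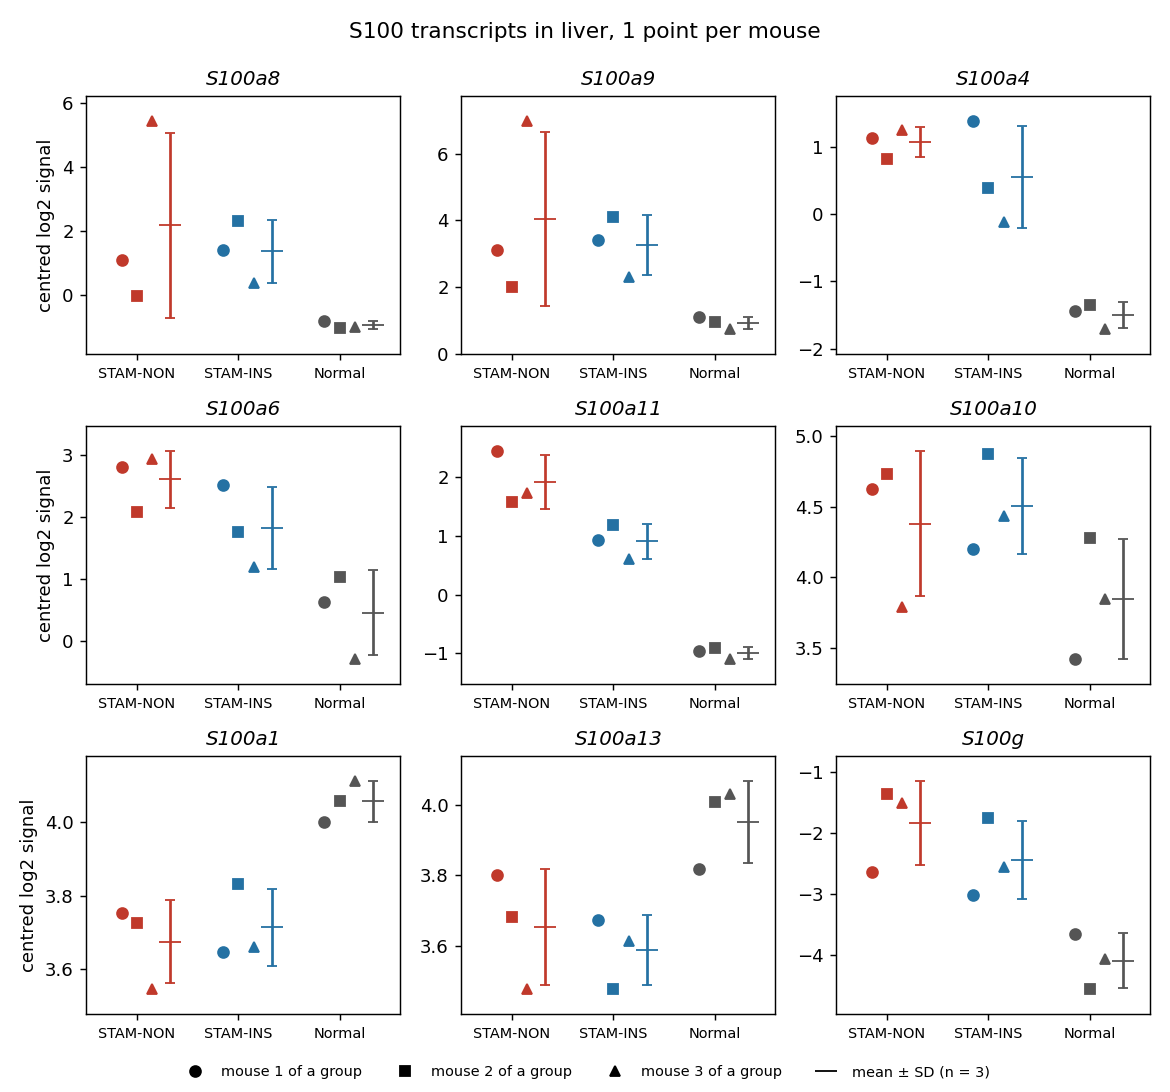
Centred log2 signal (vertical axes, each panel with its own range) of 9 S100 transcripts in 3 STAM-NON, 3 STAM-INS and 3 Normal mice, with 1 point per mouse and the mean ± SD beside each group. S100a4, S100a6, S100a8, S100a9, S100a11 and S100g lay above every Normal mouse in all 6 STAM mice, and mouse 3 of STAM-NON stood far above the other mice for S100a8 and S100a9. S100g had Normal values at background. The share of all named genes with such separation was not counted.

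S100a8 and S100a9, the subunits of calprotectin, varied widely among the STAM mice. The centred log2 signal of S100a8 was 1.09, -0.03 and 5.45 in STAM-NON mice 1 to 3, 1.39, 2.32 and 0.37 in STAM-INS mice 1 to 3 and -0.82, -1.04 and -1.02 in Normal mice 1 to 3. That of S100a9 was 3.12, 2.02 and 6.98 in STAM-NON, 3.40, 4.09 and 2.30 in STAM-INS and 1.10, 0.97 and 0.74 in Normal. All 6 STAM mice were above all Normal mice for both genes, the STAM groups overlapped, and STAM-NON mouse 3 was the highest. The SD in STAM-NON was 2.90 for S100a8 and 2.61 for S100a9, against 0.12 and 0.18 in Normal (n = 3 each).

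With this spread neither gene passed the threshold. STAM-NON exceeded Normal by 3.13 ± 1.22 for S100a8 (SE, adjusted p = 0.109 in limma) and by 3.10 ± 1.11 for S100a9 (adjusted p = 0.0874). STAM-INS exceeded Normal by 2.32 ± 1.22 (adjusted p = 0.225) and 2.32 ± 1.11 (adjusted p = 0.184). These SEs rest on a spread shared by all 3 groups, STAM-NON included. In STAM-INS against Normal, each gene passed under 2 of 23 alternatives, with lowest adjusted p-values in limma of 0.0201 and 0.0170. The result turned on single mice. Without STAM-NON mouse 3, the differences from Normal were 1.49 (adjusted p = 0.127) and 1.63 (adjusted p = 0.0951) in STAM-NON, while in STAM-INS the same differences of 2.32 and 2.32 passed (adjusted p = 0.0237 and 0.0204), since the spread shared by the groups became smaller. Without STAM-NON mouse 2, the STAM-NON differences were 4.23 (adjusted p = 0.0492) and 4.11 (adjusted p = 0.0404). STAM-INS minus STAM-NON was -0.81 for S100a8, with a 95% interval from -3.60 to 1.98, and 0.83 without STAM-NON mouse 3. For S100a9 it was -0.78, with an interval from -3.30 to 1.75, and 0.69 without that mouse.

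The 2 genes followed each other closely from mouse to mouse. Relative to the Normal mean, STAM-NON mice 1 to 3 stood at 2.05, 0.93 and 6.41 for S100a8 and at 2.18, 1.08 and 6.04 for S100a9, and STAM-INS mice 1 to 3 at 2.35, 3.28 and 1.33 and at 2.46, 3.15 and 1.36. After each profile was centred on its own mean, the root mean square difference between them over the 9 arrays was 0.16 on the log2 scale. Among 13384 other named genes none was nearer to either one. The next nearest were Retnlg, which codes for a resistin-like protein of neutrophils, at 0.44 from S100a8 and 0.40 from S100a9, and Ppbp, a platelet chemokine, at 0.75 and 0.66.

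The mean signal of neutrophil markers was highest in STAM-NON mouse 3 as well. That mouse had the highest signal for 13 of the 19 markers on the array. The mean centred log2 signal over these 19 was -1.66, -2.41 and 0.91 in STAM-NON, -1.23, -0.95 and -1.93 in STAM-INS and -2.74, -2.44 and -2.80 in Normal. The mean of lymphocyte markers was also highest there, over 11 genes at -0.86 in STAM-NON mouse 3, against -2.24 to -1.75 in the other STAM mice and -2.06 to -1.39 in Normal, and with 6 of the 11 highest in that mouse. All 19 neutrophil markers were well above background in STAM-NON mouse 3, between 7 and 16 in the other STAM mice and between 6 and 10 in Normal. STAM-NON 1, STAM-NON 3 and STAM-INS 1 had 15, 19 and 16. These arrays also had the most spots well above background, at 59.3%, 63.1% and 65.0%, against 46.2% to 51.1% on the others. The part of array sensitivity in these counts was not tested. Ltf, the iron-binding lactoferrin of neutrophil granules, read 2.56 in STAM-NON mouse 3 and at most -1.04 elsewhere, and neither Ltf nor Mpo was well above background in any Normal mouse. Only 10 of the 19 could be tested, of which 1 passed between STAM-NON and Normal (Cebpe, lower, with a difference of -1.32, adjusted p = 0.0146) and 3 between STAM-INS and Normal (Prtn3, well above background in 1 Normal mouse, higher by 5.14, adjusted p = 0.0364, and Cebpe and Elane lower, with differences of -1.04 and -0.58). The median difference of the 10 was 0.70 in STAM-NON and 0.48 in STAM-INS. Cebpe and Elane were bright in Normal, with means of 4.31 and 2.38, and read 2.66 and 2.07 in STAM-NON mouse 3, so they did not follow S100a8 and S100a9. The mean of 13 monocyte and macrophage markers was also highest in STAM-NON mouse 3, at 1.65 against 0.15 to 1.29 in the other STAM mice. Of these 13, 5 were highest in that mouse and 5 in STAM-INS mouse 2. The part of neutrophil, monocyte or lymphocyte number in the S100a8 and S100a9 values was not tested.

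**Figure D2:**
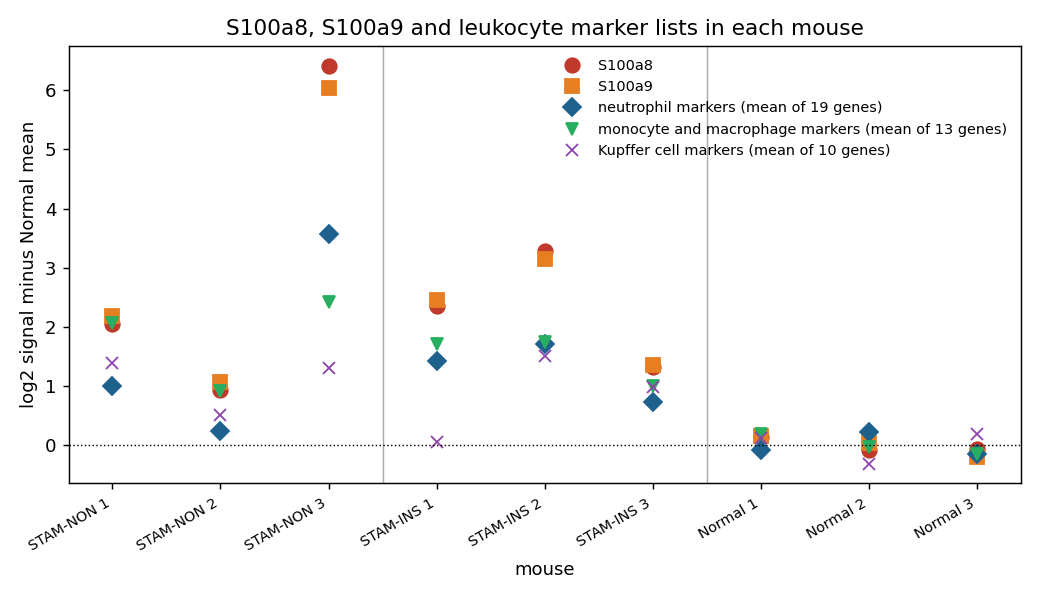
Log2 signal minus the Normal mean (vertical axis) in each of the 9 mice (horizontal axis) for S100a8 and S100a9 and for the mean of 19 neutrophil, 13 monocyte and macrophage and 10 Kupffer cell markers. In STAM-NON mouse 3, S100a8 stood at 6.41, S100a9 at 6.04 and the neutrophil mean at 3.57.

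Genes that act upstream of calprotectin or beside it in inflammation were also counted. Of 15 such genes, 10 were tested, and 3 rose in STAM-NON against Normal and 5 in STAM-INS against Normal, with none lower. Their median difference was 0.62 and 1.13, against -0.10 and -0.06 over all named genes. Lcn2, a siderophore-binding protein of the acute phase, was higher by 4.86 ± 0.91 in STAM-NON (SE, adjusted p = 0.0165 in limma) and by 5.79 in STAM-INS (adjusted p = 0.00769). Saa2, an acute-phase serum amyloid A, was higher by 2.06 (adjusted p = 0.0456) and 4.53 (adjusted p = 0.00379), and Saa1 by 4.58 in STAM-INS (adjusted p = 0.00428). In STAM-NON, Saa1 differed by 1.81 and did not pass (adjusted p = 0.0731). Cxcl1, a neutrophil chemokine, was higher by 0.67 in STAM-NON (adjusted p = 0.0497) and by 0.83 in STAM-INS (adjusted p = 0.0278). None of the 10 passed between STAM-INS and STAM-NON, where 2 had an unadjusted p under 0.05.

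The stretches of 250 bases before the S100a8 and S100a9 starts are shown because these genes lie side by side and each had the other as its nearest gene. They are from RefSeq (GRCm38.p6), 5′ to 3′ on the strand of the gene. Capitals mark TATAAA, the TATA box, and TTNNGNAA, a loose C/EBP motif, searched on both strands.
S100a8 promoter (chr3:90668821-90669070, + strand): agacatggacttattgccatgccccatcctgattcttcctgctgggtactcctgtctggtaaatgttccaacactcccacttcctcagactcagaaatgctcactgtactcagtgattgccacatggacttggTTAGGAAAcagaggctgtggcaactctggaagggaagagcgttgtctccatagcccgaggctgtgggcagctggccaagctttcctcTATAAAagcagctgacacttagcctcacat
S100a9 promoter (chr3:90695722-90695971, - strand): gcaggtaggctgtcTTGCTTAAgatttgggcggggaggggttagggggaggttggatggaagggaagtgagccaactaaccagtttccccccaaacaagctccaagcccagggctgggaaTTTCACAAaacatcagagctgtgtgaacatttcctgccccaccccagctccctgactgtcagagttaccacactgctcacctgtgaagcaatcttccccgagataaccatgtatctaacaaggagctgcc
S100a8 held TATAAA 30 bases before the start and TTNNGNAA at 117 bases. S100a9 held TTNNGNAA at 236 and 130 bases and no TATAAA. TTNNGNAA occurred in 36.8% of 32851 promoter windows of this length and TATAAA in 12.4%, so the former is common. Neither the NF-kappaB motif (4.11% of windows) nor TTCNNNGAA (STAT, 7.02%) was found in these windows or in those of the other 6 members that had one, and no sequence was given for S100a10.

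S100a11, which binds annexin A1 and acts in membrane repair and epithelial growth, showed the difference with the smallest adjusted p among the 9 genes. Its centred log2 signal was 2.45, 1.58 and 1.73 in STAM-NON, 0.94, 1.19 and 0.60 in STAM-INS and -0.97, -0.91 and -1.10 in Normal. The 3 groups did not overlap, with STAM-NON highest, STAM-INS between and Normal lowest. STAM-NON exceeded Normal by 2.91 ± 0.24, or 7.52-fold (SE, adjusted p = 0.0018 in limma), and STAM-INS exceeded Normal by 1.90 ± 0.24, or 3.74-fold (adjusted p = 0.00379).

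S100a11 was also the only member with an unadjusted p under 0.05 between the STAM groups, where 2309 of 26289 tested probes had one. STAM-INS minus STAM-NON was -1.01, with a 95% interval from -1.56 to -0.46 and no overlap of the mice (unadjusted p = 0.00264 in limma), but did not pass after adjustment (adjusted p = 0.333). The difference stayed between -1.18 and -0.74 when each mouse was left out in turn. Within slide row 1, the difference of STAM-INS 1 from the STAM-NON mean was -0.98, and within row 2 the other STAM-INS mice exceeded Normal by 1.89.

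The promoter of S100a11 is shown as that of the member with the smallest adjusted p, with TGANTCA, the AP-1 motif, in capitals.
S100a11 promoter (chr3:93520246-93520495, + strand): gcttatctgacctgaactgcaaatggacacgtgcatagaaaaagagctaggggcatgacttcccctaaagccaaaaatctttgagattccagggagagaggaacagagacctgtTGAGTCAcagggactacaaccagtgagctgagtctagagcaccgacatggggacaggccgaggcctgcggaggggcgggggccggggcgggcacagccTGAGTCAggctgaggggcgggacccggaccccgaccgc
It held TGANTCA at 136 and 38 bases before the start, where 6.75% of all windows held this motif at least once and no other member did. It also held GGGCGG (Sp1, 32.7% of windows) at 64, 52 and 24 bases. ACGTG (the core of a hypoxia response element, 16.6% of windows) matched on both strands, at overlapping positions 223 and 222. Both matches are the same stretch, CACGTG, which reads alike on either strand. These matches describe the letters only.

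S100a4, also called metastasin and made by fibroblasts and macrophages, binds nonmuscle myosin. It read 1.14, 0.83 and 1.26 in STAM-NON, 1.39, 0.39 and -0.11 in STAM-INS and -1.44, -1.35 and -1.71 in Normal. All STAM mice were above all Normal mice, while the STAM groups overlapped and STAM-INS was the more scattered (SD 0.77 against 0.22, n = 3 each). STAM-NON exceeded Normal by 2.58 ± 0.34, or 5.96-fold (SE, adjusted p = 0.00693 in limma), and STAM-INS exceeded it by 2.06 ± 0.34, or 4.16-fold (adjusted p = 0.00939). The other probe of the gene gave smaller differences of 1.46 (adjusted p = 0.018) and 1.10 (adjusted p = 0.0396). STAM-INS minus STAM-NON was -0.52, with an interval from -1.29 to 0.25 (adjusted p = 0.702). It was 0.32 within row 1, where STAM-INS 1 was the only STAM-INS array.

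The promoter of S100a4 is shown because, with S100a8, it was the only member window with TATAAA, here in capitals, 31 bases before the start.
S100a4 promoter (chr3:90603520-90603769, + strand): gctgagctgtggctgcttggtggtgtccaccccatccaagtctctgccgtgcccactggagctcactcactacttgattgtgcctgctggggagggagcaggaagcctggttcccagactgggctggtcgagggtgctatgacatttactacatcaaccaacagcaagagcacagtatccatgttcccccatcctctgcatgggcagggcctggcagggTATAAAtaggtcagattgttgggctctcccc
It held none of the other motifs searched.

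S100a6, or calcyclin, a partner of Cacybp and annexins that is high in dividing and mesenchymal cells, read 2.80, 2.08 and 2.94 in STAM-NON, 2.52, 1.75 and 1.19 in STAM-INS and 0.63, 1.04 and -0.29 in Normal. All STAM mice exceeded all Normal mice, and the STAM groups overlapped. STAM-NON exceeded Normal by 2.15 ± 0.43, or 4.44-fold (SE, adjusted p = 0.0194 in limma). The difference did not pass without STAM-NON 1 (2.05, adjusted p = 0.0591), STAM-NON 3 (1.98, 0.0565), Normal 1 (2.24, 0.0556) or Normal 3 (1.77, 0.0591). STAM-INS minus Normal was 1.37 (adjusted p = 0.0691) and STAM-INS minus STAM-NON -0.78, with an interval from -1.77 to 0.20. Within slide row 1, STAM-INS 1, the only STAM-INS array there, differed from the STAM-NON mean by -0.085.

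S100a10, or p11, which has lost calcium binding and joins annexin A2 at the plasma membrane, did not pass in any comparison. It read 4.62, 4.73 and 3.79 in STAM-NON, 4.20, 4.87 and 4.44 in STAM-INS and 3.42, 4.28 and 3.84 in Normal, and the STAM groups overlapped each other and Normal. The difference from Normal was 0.53, with an interval from -0.18 to 1.25, in STAM-NON and 0.66, with an interval from -0.06 to 1.37, in STAM-INS. Its partner Anxa2 was higher in STAM-NON than in Normal by 2.14 ± 0.42 (adjusted p = 0.0178).

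Of 25 receptors and binding partners of S100 proteins, 24 were tested, and 7 passed between STAM-NON and Normal, 5 higher and 2 lower. Besides Anxa2, the higher ones were Cd14, the co-receptor of Tlr4, by 1.52 (adjusted p = 0.0449), the fatty acid receptor Cd36 by 1.39 (adjusted p = 0.0246), the tropomyosin Tpm4 by 0.88 and the scaffold Ahnak by 0.44. The lower ones were Tpm1, with a difference of -0.64, and the phosphatase Ppp5c, with -0.55. Between STAM-INS and Normal 4 passed, namely Cd14 (1.69, adjusted p = 0.035), Ahnak (0.51, adjusted p = 0.0188), Fgf1, a growth factor that S100a13 helps to export (-0.92, adjusted p = 0.00813), and Ppp5c (-0.65, adjusted p = 0.026). None passed between STAM-INS and STAM-NON, where 2 of the 24 had an unadjusted p under 0.05, as had 2309 of 26289 tested probes. The median difference of the 24 was 0.30 in STAM-NON and 0.13 in STAM-INS against Normal. Of all named genes, 16.3% and 13.5% passed in these comparisons, so the 4 of 24 in STAM-INS was a share near the background. Ager, the gene not tested, was well above background in 1 STAM-NON and 1 STAM-INS mouse.

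S100a1 and S100a13 had differences from Normal below 0. S100a1, which regulates calcium pumps and channels in muscle, read 3.75, 3.73 and 3.55 in STAM-NON, 3.65, 3.83 and 3.66 in STAM-INS and 4.0, 4.06 and 4.11 in Normal. All STAM mice were below all Normal mice and the STAM groups overlapped. STAM-NON was lower than Normal by a difference of -0.38 ± 0.11, or 1.30-fold (SE, adjusted p = 0.0495 in limma), with -0.55 on the other probe (adjusted p = 0.041). This call was at the edge of the threshold and was lost whichever single mouse was left out, with differences from -0.42 to -0.32 and adjusted p-values from 0.0656 to 0.143, and in 19 of 23 alternatives in all. STAM-INS minus Normal was -0.34 (adjusted p = 0.0706).

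S100a13, which takes part in the release of Fgf1, read 3.80, 3.68 and 3.48 in STAM-NON, 3.67, 3.48 and 3.61 in STAM-INS and 3.82, 4.01 and 4.03 in Normal. The STAM mice lay below the Normal mice, STAM-NON 1 by a margin smaller than the spread within a group, and the difference did not pass (-0.30, adjusted p = 0.131 in STAM-NON and -0.36, adjusted p = 0.0877 in STAM-INS). The sizes of both depend on the centring: with arrays centred on spots of added control RNA (spike-ins) well above background, the STAM-NON differences were -0.08 for S100a1 and 0.01 for S100a13. The starts of these 2 genes are 104 bases apart and face away from each other, so that their windows of 250 bases share the 104 bases between them.

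S100g, the calcium carrier of the gut, was dim in all livers. It read -2.63, -1.36 and -1.51 in STAM-NON, -3.02, -1.76 and -2.56 in STAM-INS and -3.65, -4.56 and -4.07 in Normal, where no array was well above background. All STAM mice exceeded all Normal mice and were well above background. Only a bound can therefore be given. Against each Normal array's lowest detected signal, or the probe's own signal where higher, the bounds were 4.13-fold in STAM-NON and 2.71-fold in STAM-INS. The limma tests of the signals themselves gave differences of 2.26 (adjusted p = 0.0167) and 1.65 (adjusted p = 0.0395). The other probe gave bounds of 3.27-fold and 2.30-fold. Its differences were 2.36 (adjusted p = 0.0258) and 1.85, which did not pass (adjusted p = 0.0506). These tests set the STAM mice against Normal signals at background, and the gene entered them through the STAM groups alone, so they are given as a description. The size also depended on the background correction. With normexp the log2 difference from Normal was 0.79 in STAM-NON (adjusted p = 0.0314) and 0.46 in STAM-INS (adjusted p = 0.156). Both were smaller as folds than the bounds, which therefore hold only for the processed signal. The call was lost without Normal 2 (adjusted p = 0.0571) or Normal 3 (adjusted p = 0.0553) in STAM-NON, and without any one of STAM-NON 2, STAM-INS 2, STAM-INS 3 or the Normal mice in STAM-INS (adjusted p from 0.0547 to 0.128).

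The other genes of calcium transport did not share 1 direction. Of 15, 9 were tested, and 4 passed between STAM-NON and Normal. Atp2b2, a plasma membrane calcium pump, was higher by 2.36 (adjusted p = 0.0394), and by 3.95 in STAM-INS (adjusted p = 0.00773). Slc8a1, a sodium-calcium exchanger, was not well above background in any Normal mouse and was tested only through STAM-NON. Its bound of 1.57-fold is given as a description. Pvalb, a calcium buffer, was lower, with a difference of -0.96 (adjusted p = 0.00654), and of -0.92 in STAM-INS (adjusted p = 0.00459), and the calcium channel Trpv6 was lower, with a difference of -0.52 (adjusted p = 0.0377). Calb1 and the vitamin D enzymes Cyp24a1 and Cyp27b1 were not well above background on any array.

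**Figure D3:**
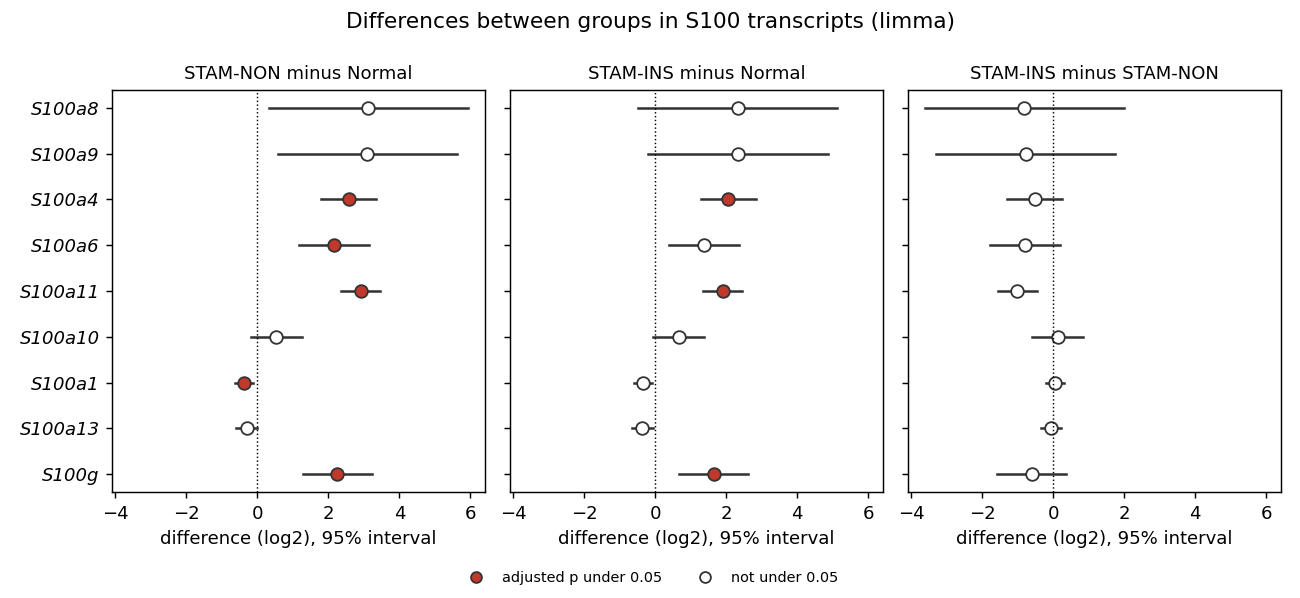
Difference between group means on the log2 scale (horizontal axis) of 9 S100 transcripts (vertical axis) in 3 comparisons of 3 mice against 3, with 95% intervals from limma and filled points where the adjusted p was under 0.05. The differences from Normal lay between -0.38 and 3.13 in STAM-NON, and in STAM-INS minus STAM-NON every point was open. For S100g the points against Normal rest on Normal values at background.

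Some markers of cell types that could carry these transcripts passed in the same comparisons. Of the monocyte and macrophage markers, 6 of 13 were higher in STAM-NON than in Normal and none lower, among them Trem2 by 2.93 (adjusted p = 0.0123) and Cx3cr1 by 2.73 (adjusted p = 0.0157). Gpnmb, counted among the 6, was not well above background in any Normal mouse and was tested only through STAM-NON. Its bound of 4.34-fold is given as a description. The mean signal of the 13 lay between 0.15 and 1.65 in STAM-NON, 0.23 and 0.98 in STAM-INS and -0.92 and -0.59 in Normal. Of 15 stellate cell and fibroblast markers, 3 were counted as higher, Spp1 by 1.51, Lum by 1.14 and Timp1. Timp1 was not well above background in any Normal mouse and was tested only through the STAM groups. Its bound of 7.69-fold is given as a description. Col1a1, Acta2, Pdgfrb, Lrat and Des were among those that did not pass. Of these, Col1a1 differed by 1.90 between STAM-NON and Normal (adjusted p = 0.0774 in limma), and Pdgfrb had an adjusted p of 0.0757. Des differed by 0.53, Lrat by 0.21 and Acta2 by -0.09 (adjusted p = 0.152, 0.646 and 0.921). In this comparison 10 of the 15 had an unadjusted p under 0.05, and the median difference of the 15 was 0.91. The mean of the 15 lay between 1.05 and 1.72 in STAM-NON, 0.61 and 1.30 in STAM-INS and 0.08 and 0.61 in Normal. In STAM-INS against Normal, 4 of the 13 and 1 of the 15 were higher, the latter Timp1 alone and a share near the background. The part of these cell types in S100a4, S100a6 and S100a11 was not tested.

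Of 8 tested biliary and progenitor markers, 3 were higher in STAM-NON, Cd24a by 2.35 (adjusted p = 0.0292), Krt7 by 1.56 and Sox9 by 0.97, and 1 in STAM-INS, Sox9 by 1.57 (adjusted p = 0.00341). Of 10 Kupffer cell markers, 3 were higher in STAM-NON (Cd5l, C1qc and Clec4f, by 0.98 to 1.34) and 2 in STAM-INS. Of 8 proliferation markers, 1 was higher in STAM-NON (Aurka by 1.39, adjusted p = 0.0473), a share near the background, and 3 in STAM-INS (Plk1 by 2.64, Ccnb1 by 2.57 and Aurka by 1.75). The median difference of the 8 was 1.53 in STAM-NON and 1.80 in STAM-INS, with an unadjusted p under 0.05 for 6 of the 8 in each. All 8 were highest in STAM-INS mouse 2, where their mean signal was 0.54, against -0.98 and -1.53 in STAM-INS mice 1 and 3. Krt7 and Ccnb1 were well above background in only 1 Normal mouse each. None of 6 tested lymphocyte markers passed, and 1 had an unadjusted p under 0.05, in STAM-NON against Normal. Of the 12 hepatocyte markers, Cps1, the first enzyme of the urea cycle, was lower, with a difference of -0.66 in both STAM groups (adjusted p = 0.0314 and 0.0324). Between STAM-INS and STAM-NON no marker of these or of the macrophage and fibroblast lists passed in limma, with an unadjusted p under 0.05 for 4 stellate cell and fibroblast, 1 biliary and 1 hepatocyte marker.

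Other S100 genes that could be tested did not pass the threshold. On chromosome 3, all members but S100g lie in 1 cluster of 15 S100 genes, in the order S100a1, S100a13, S100a14, S100a16, S100a3, S100a2, S100a4, S100a5, S100a6, S100a7a, S100a8, S100a9, S100a7l2, S100a11 and S100a10. Of 8 other S100 genes looked up (S100a3, S100a5, S100a7a, S100a14, S100a16, S100b, S100z and S100pbp, which codes for a binding protein), 3 were bright enough to test and none passed in any comparison or had an unadjusted p under 0.05. S100a5, which lies between S100a4 and S100a6, differed by -0.28 between STAM-NON and Normal, and S100a16 by -0.02.

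The genes whose profiles were nearest to those of the remaining members are given as a description over 9 arrays. For S100a11 they were Hcar2 (root mean square difference 0.27), Ntf3 (0.30) and Sprr1a (0.33), where S100a11 itself had an SD of 1.31 over the arrays. For S100a4 (SD 1.25) they were Grk3 (0.32), Arhgap22 (0.34) and Cx3cr1 (0.36), and for S100a6 (SD 1.08) Emp1 (0.30), Clip2 (0.33) and B4galt6 (0.36). For S100g (SD 1.14, with Normal values at background) they were Pcdhb16 (0.32), Adam32 (0.33) and Il27ra (0.46), and for S100a10 (SD 0.48) Psmb9 (0.19), Ccdc122 (0.21) and Cdk5rap2 (0.22). S100a1 and S100a13 varied little, with an SD of 0.20 each, and had many near neighbours, the nearest being Ptpa, Apool and AI597479 for the former and Cym, Vps51 and Manea for the latter.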

How the data were processed

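The authors deposited, for each array, the scanner output of Agilent Feature Extraction 11.5.1.1, per the file headers: background-subtracted spot intensity (processed signal) with flags, not normalised between arrays. Control spots and spots flagged as outliers were left out, and 55681 probes were read. Names came from RefSeq (GRCm38.p6), which named 27656 probes. From log2 of the processed signal the 75th percentile of each array was subtracted. A probe was tested if well above background on all 3 arrays of at least 1 group (26289 probes). limma 3.58.1 in R 4.3.3 was fitted to all 9 arrays without a block (lmFit, eBayes, two-sided), with Benjamini-Hochberg adjustment over those probes and a threshold of 0.05. Where a gene had 2 probes, the one with the higher mean was counted. For a probe below background in a group, a bound sets the brighter mean against the lowest detected signal or the probe's own signal, whichever was higher. The fit was tested on simulated data.

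Members and the 12 gene lists were chosen with earlier results of these data known. Of each list, up to 3 genes with the largest difference past the threshold are named in a comparison, and names beyond these were chosen after seeing values. The labels do not say whether mice shared a litter or cage. The number of arrays limits precision. Alternatives covered background correction, scaling, filter, blocks, samples, variance model, threshold and leaving out each array. Protein sequences were not used here. RNA extraction kits named by labels and methods differ.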

Additional observations from a re-analysis of the deposited data

How the results depend on the processing

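Counts of S100 genes past the threshold depended on the processing. Between STAM-NON and Normal the count of 5 of 9 became 2 with no filter on dim probes, 0 with the slide row as a block, 8 of 12 when every probe was counted, and 2 to 6 when 1 mouse was left out (2 without Normal 3, 3 without STAM-NON 1, STAM-NON 3, Normal 1 or Normal 2, 6 without STAM-NON 2). With the row block, STAM-NON and Normal share no row and are linked only through STAM-INS. S100a11 then differed by 2.87 (adjusted p = 0.111), S100a4 by 1.32 (0.185) and S100a6 by 1.10 (0.475), and S100g had an adjusted p of 0.169. S100a11 and S100a4 passed under the other 22 alternatives each. S100a1 was lost in 19 of 23. Between STAM-INS and Normal the count of 3 became 5 with only the 6 arrays of both groups, 6 at an adjusted p of 0.10, and 2 to 5 when 1 mouse was left out (5 without STAM-NON 3). Between STAM-INS and STAM-NON it was 0 throughout, from 0 to 0 when 1 mouse was left out.

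Differences that turned sign were small or rested on few arrays, and none had passed the threshold. With arrays centred on spike-in spots well above background, a choice made after seeing the data, S100a13 in STAM-NON minus Normal became 0.00517. For STAM-INS minus STAM-NON, S100a1 became -0.0101 under quantile normalization, -0.000512 with the percentile over probes detected on all arrays, -0.0981 and -0.109 with spike-in centring on all and on bright spots, and -0.0268 with the row block. S100a10 became -0.0130 and -0.0235 with spike-in centring and -0.179 with the row block. The row block turned S100a4 to 0.316 and S100a13 to 0.0207. With 1 mouse left out in turn, S100a8 ran from -1.91 to 0.829 and S100a9 from -1.79 to 0.694 (both above 0 without STAM-NON 3), S100a1 from -0.0257 to 0.0783 and S100a10 from -0.172 to 0.299 (both below 0 without STAM-NON 3 or STAM-INS 2), and S100a13 from -0.154 to 0.00896 (above 0 without STAM-NON 1). The cause was not tested.

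The replicate numbers share only a number (correlation of deviations from -0.29 to 0.15 within numbers, -0.19 to 0.28 between), and with them as a replicate block the counts were 4, 0 and 2. Over all probes, the median STAM-NON minus Normal difference ran from -0.29 to 0.18 with the centring, beside -0.13, and 4090 calls (1672 higher, 2418 lower) became 3196 (2738 higher, 458 lower) with bright spike-ins, 2289 (1571 higher, 718 lower) with all spike-ins, 3141 (2077 higher, 1064 lower) with the percentile over detected probes, 242 without the filter and 15 with the row block. The filter of detection on all 9 arrays left out S100g. Of 504 list counts under alternatives, 405 stayed within 1.5 times.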
